A study of Mus musculus with 16 samples.

Results

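The genes described here encode surface receptors of myeloid cells: 7 C-type lectin receptors (*Clec4e*, *Clec4d*, *Clec4n*, *Clec5a*, *Clec7a*, *Clec10a* and *Clec12a*), the TREM receptors *Trem1* and *Trem2*, and *Tyrobp*, which encodes their adaptor DAP12. They were taken by gene symbol from the table of mouse hamstring muscle, where all 10 were found among 26382 genes. All animals were female C57BL/6 mice of 8 to 10 weeks, and muscle was collected 14 days after injection. HRS, the recombinant histidyl-tRNA synthetase that served as the immunogen, was placed by the sample titles in the left leg of 5 mice (m862 to m866), whose right legs were given PBS and form the contralateral PBS group. A pair of PBS-only mice (m867 and m868) gave both legs, which made 4 libraries. The HRS-MBP group held 1 library from each of 2 mice (m860 and m861), titled as an MBP fusion at 2 to 3 mg/mL, although their treatment label reads HRS at 3 to 5 mg/mL and no leg is given. The protocol describes injection of both sides, 100 µL in all, which differs from the titles of the legs, and the titles were followed here. HRS was always in the left leg and PBS in the right, so treatment and side cannot be told apart between the legs of a mouse.

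C-type lectin receptors bind sugars, glycolipids and other ligands through a lectin-like domain. Mincle (*Clec4e*), MCL (*Clec4d*) and Dectin-2 (*Clec4n*) reach the kinase Syk through the Fc receptor gamma chain (*Fcer1g*). Dectin-1 (*Clec7a*) carries its own Syk-binding motif, and MDL-1 (*Clec5a*) pairs with DAP12. Syk then acts through *Card9*, *Bcl10* and *Malt1* on NF-κB. TREM1 amplifies inflammatory responses of neutrophils and monocytes, whereas TREM2 is a lipid-sensing receptor of macrophages, and both signal through DAP12. *Clec12a* encodes an inhibitory receptor for uric acid crystals, and *Clec10a* encodes a galactose-binding lectin found on some tissue macrophages and dendritic cells.

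The genes lie in a few clusters of the mouse genome (coordinates of the deposited table, which match GRCm38). *Clec4n* (chr6:123229843-123247021), *Clec4d* (chr6:123262111-123275265) and *Clec4e* (chr6:123281789-123289870) stand side by side, with gaps of 15.1 and 6.5 kb. *Clec12a* (chr6:129342691-129365303) and *Clec7a* (chr6:129461591-129472779) are 96.3 kb apart, and *Clec5a* (chr6:40574894-40585821) stands alone on the same chromosome. *Trem1* (chr17:48232768-48246924) and *Trem2* (chr17:48346401-48354147) are 99.5 kb apart, *Clec10a* is at chr11:70156197-70170834 and *Tyrobp* at chr7:30413760-30417585. GENCODE M21 lists *Clec7a* as a polymorphic pseudogene, and no exon of the 10 genes overlapped an exon of another gene.

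Since most of these genes rose together in injected muscle, the 150 bases before the start site are shown for 5 of them, each 5′ to 3′ on the sense strand (RefSeq, GRCm38.p6). Capitals mark GAGGAA or, on the other strand, TTCCTC, the core bound by the myeloid factor PU.1. They are chr6:123289872-123290021 (minus strand) for *Clec4e*, chr6:40585806-40585955 (minus) for *Clec5a*, chr6:129472780-129472929 (minus) for *Clec7a*, chr6:129350094-129350243 (plus) for *Clec12a* and chr17:48346251-48346400 (plus) for *Trem2*.
Clec4e: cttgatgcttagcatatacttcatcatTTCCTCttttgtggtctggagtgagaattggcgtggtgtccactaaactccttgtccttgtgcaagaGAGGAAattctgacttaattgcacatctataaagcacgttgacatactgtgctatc
Clec5a: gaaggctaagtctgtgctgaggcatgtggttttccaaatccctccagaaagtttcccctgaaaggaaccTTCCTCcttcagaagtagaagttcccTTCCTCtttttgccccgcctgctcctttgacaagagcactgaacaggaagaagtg
Clec7a: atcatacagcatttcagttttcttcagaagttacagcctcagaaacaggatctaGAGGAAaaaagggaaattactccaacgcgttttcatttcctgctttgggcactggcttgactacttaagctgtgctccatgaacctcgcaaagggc
Clec12a: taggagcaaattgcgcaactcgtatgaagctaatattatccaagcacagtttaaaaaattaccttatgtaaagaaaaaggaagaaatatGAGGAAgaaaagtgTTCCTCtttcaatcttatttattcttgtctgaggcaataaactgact
Trem2: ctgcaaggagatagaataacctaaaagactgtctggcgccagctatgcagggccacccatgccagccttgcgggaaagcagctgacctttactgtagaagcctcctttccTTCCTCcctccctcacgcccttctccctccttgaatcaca

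The RefSeq table held 8 start sites of 7 of the 10 genes, and *Clec7a* had 2 of them, whose windows overlap. In windows from 250 bases before to 50 after the start, GAGGAA (either strand) was found in 8 of 8, against 28.3% of 32851 mouse windows. In *Clec4e* it lay at -123 and -56, in *Clec5a* at -81 and -55, in *Clec12a* at -61 and -47 and in *Trem2* at -40, counted from the start site. The windows of *Trem1* (-162) and *Clec4d* (-240, 8 and 40) held it outside the stretch of 150 bases. The AP-1 sequence TGANTCA was in 2 of 8 windows (*Clec12a* and *Trem2*), against 7.81% of all windows, and the C/EBP-like TTGCNNAA was in 3 of 8 (*Clec12a*, *Clec4e* and *Trem2*), against 10.8%. These matches describe the sequence only.

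Values are the authors' normalized counts. The libraries held the equivalent of 8595360 to 73939200 reads, and 3 reads were worth at most 0.364 normalized counts, in a leg of m868. The HRS leg of m866 stood apart. On the principal component that held 77.3% of the variance its score of 2.84 fell between the PBS libraries (at least 37.9) and the remaining libraries given HRS or HRS-MBP (at most -65.43). Its mitochondrial share of 11.1% compared with 3.41% to 6.29% in the other HRS legs. The muscle fibre list of 8 genes summed to 188934 there, against 44375 to 109760 in the other HRS legs and 138345 to 224488 in contralateral legs. That leg was the lowest HRS leg for all 10 receptor genes, and the HRS leg of m864 was the highest for 9 of them, all but *Trem2*. Without the HRS leg of m866, log2 fold changes between the legs were 5.52 for *Clec4e*, 5.56 for *Clec4d*, 4.66 for *Clec4n*, 3.56 for *Clec5a*, 4.04 for *Clec7a*, 1.25 for *Clec10a*, 4.25 for *Clec12a*, 4.77 for *Trem2* and 3.81 for *Tyrobp*, and all 9 were called higher by limma, in a fit that called 4855 genes in all (3810 with every library).

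In HRS legs, the receptor genes rose strongly over the contralateral legs of the same mice (the plot of receptor levels by group). All 9 genes that could be tested were called higher by limma (adjusted p under 0.05 and a log2 fold change above 1), against 16.9% of the 16414 genes tested, while 23.2% were called in either direction. The median change of the 9 genes was 3.90 on the log2 scale, against 0.077 for all genes. The largest change was that of *Clec4e* and the smallest that of *Clec10a*. Without the HRS leg of m864 (4.84 against 4.75) or of m866 (5.56 against 5.52), *Clec4d* changed more than *Clec4e*. In 7 of the 9 genes every HRS leg was above every contralateral leg, against 18.3% of all genes. Every HRS and HRS-MBP library was above every PBS library in the same 7 of 9, against 15.4%. In this comparison only *Clec10a* lost its call under any alternative, as described with its values. In bulk muscle, more cells of a type and more RNA per cell cannot be told apart.

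**Figure D1:**
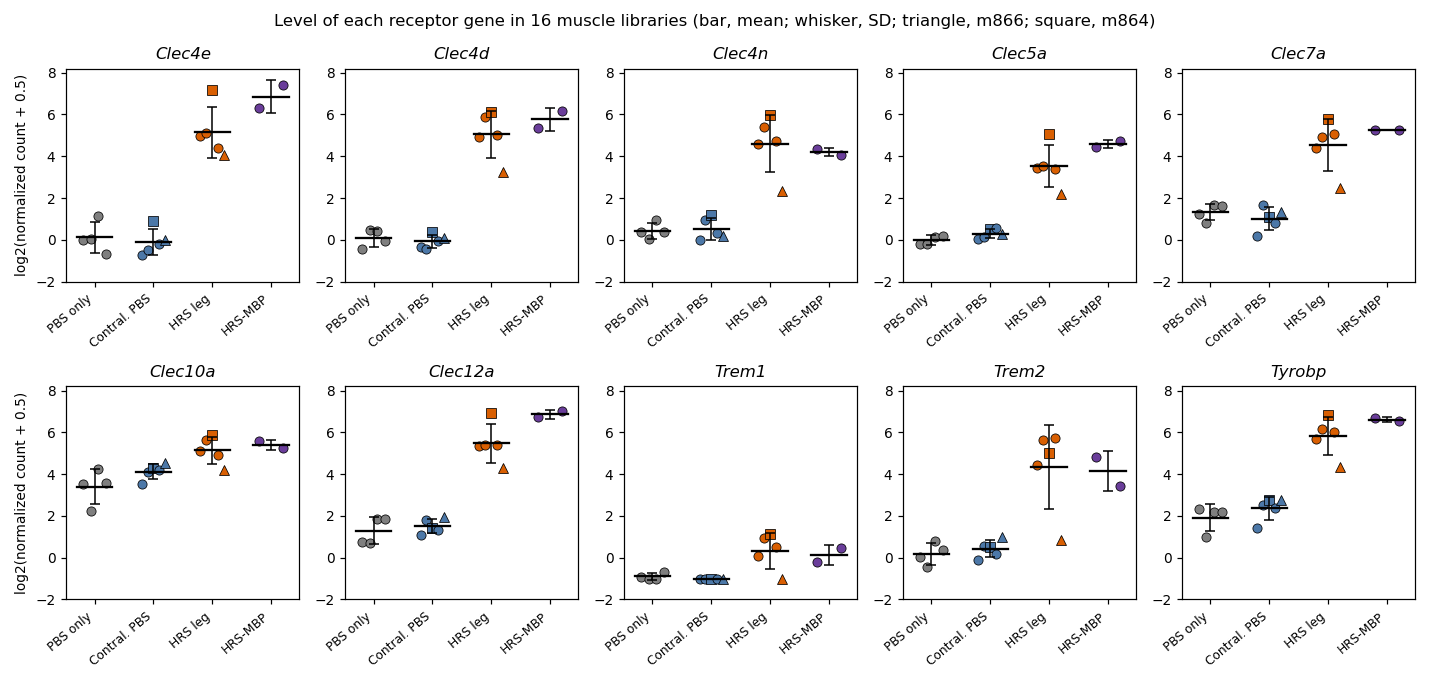
Level of each of the 10 receptor genes, as log2(normalized count + 0.5), in 4 PBS-only, 5 contralateral PBS, 5 HRS and 2 HRS-MBP libraries. Points are libraries (triangle, m866; square, m864), bars are means and whiskers SD. HRS and HRS-MBP libraries lie above every PBS library for 7 genes (7 of the 9 tested, against 15.4% of all tested genes). *Clec10a*, *Trem1* and *Trem2* overlap through m866.

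Among the receptors that couple to Syk, *Clec4e* was close to the floor in PBS muscle. Its normalized counts were 30.6, 34.4, 144, 20.4 and 16.3 in the HRS legs of m862 to m866, and 0.0961, 0.214, 1.34, 0.382 and 0.485 in their PBS legs. The 4 PBS-only legs held 0.130 to 1.70, and the HRS-MBP libraries 77.6 and 170. Every HRS library was thus above every PBS library, and the lowest of the PBS legs rested on only 3 reads. The log2 fold change between the legs was 5.25 (SE 0.508, limma adjusted p = 2.76e-06). Within mice the leg ratio ran from 33.7-fold in m866 to 318-fold in m862.

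*Clec4d*, the neighbour of *Clec4e* whose product associates with Mincle, behaved alike. HRS legs of m862 to m866 held 30.3, 58.7, 69.4, 31.6 and 9.01 normalized counts, their PBS legs 0.288, 0.247, 0.785, 0.471 and 0.565, and the HRS-MBP libraries 41.0 and 71.3. The groups did not overlap, and the log2 fold change was 5.11 (SE 0.417, limma adjusted p = 1.56e-06). *Clec4n*, the remaining gene of the cluster, held 23.8, 41.4, 61.5, 26.3 and 4.58 in the same HRS legs and 0.481 to 1.80 in their PBS legs. Its log2 fold change was 4.09 (SE 0.494, adjusted p = 1.58e-05), and the HRS-MBP libraries, at 19.8 and 16.2, lay below 4 of the 5 HRS legs.

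*Clec7a*, the receptor for fungal β-glucan, had 20.6, 30.3, 55.3, 33.0 and 5.08 normalized counts in HRS legs against 0.641 to 2.64 in contralateral legs. The log2 fold change was 3.52 (SE 0.462, limma adjusted p = 3.18e-05). In m866 the HRS leg was only 2.55-fold above its PBS leg, compared with 11.5-fold to 33.2-fold in the other mice. *Clec5a*, whose product is a DAP12-coupled receptor, had 10.5, 10.9, 33.1, 9.90 and 4.11 in HRS legs against 0.513 to 0.970, a log2 fold change of 3.23 (SE 0.355, adjusted p = 7.11e-06). All HRS legs of both genes were above all PBS legs.

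The remaining lectins differed from each other. *Clec12a*, the inhibitory receptor, was at 39.7, 41.3, 122, 42.0 and 19.2 in HRS legs and at 1.63 to 3.31 in contralateral legs. Its log2 fold change was 3.96 (SE 0.379, limma adjusted p = 2.58e-06). *Clec10a* had the highest normalized counts of the 10 genes in PBS muscle: contralateral legs held 10.9, 16.6, 19.4, 17.7 and 22.4, and HRS legs 33.6, 48.4, 58.1, 30.05 and 17.7. It was higher in the HRS leg of 4 of 5 mice, by 1.70-fold to 3.07-fold, while in m866 the HRS leg was at 0.792 of the PBS leg, so the groups overlap. The log2 fold change was 1.01 (SE 0.345, limma adjusted p = 0.0194), barely past the threshold, and it fell below 1 in 9 of 29 alternatives, among them those without the HRS leg of m863 (0.90) or of m864 (0.83) or the PBS leg of m862 (0.86), or both legs of m862, m863 or m864 (0.87 to 0.89).

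The values of *Clec10a* have a further limit. In 11 of 16 libraries they were no whole number of reads (tolerance 0.02 of a read or 1 part in 10000), and the same held in 14 libraries for *Mgl2*, its close paralogue, whereas the other 9 members were whole in all 16. Whether the authors' counting split reads between the 2 genes was not tested. *Mgl2*, looked at after the values were seen, moved the other way, with a log2 fold change of -1.09 (SE 0.298, limma adjusted p = 0.00593). Its share of the sum of both genes was 37.9% to 45.1% in contralateral legs and 6.69% to 30.6% in HRS legs. The sum itself lay between 17.6 and 40.8 in contralateral legs and between 25.6 and 62.2 in HRS legs, so that the ranges overlap.

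*Trem2* had the largest spread of the 10 genes in the log2 difference between legs (SD 2.28 over 5 mice), though not in the normalized counts of HRS legs. In HRS legs of m862 to m866 it was at 20.9, 49.6, 31.5, 52.3 and 1.31 normalized counts, and in their PBS legs at 0.417, 0.989, 0.924, 0.647 and 1.45. In 4 mice the HRS leg was 34.1-fold to 80.8-fold higher, whereas in m866 both legs were at a like low level (ratio 0.900). The log2 fold change was 3.90 (SE 0.698, limma adjusted p = 0.000414). The HRS leg of m866 thus had *Clec4e* at 33.7-fold and *Trem2* at 0.900 of its own PBS leg (the scatter of *Clec4e* against *Trem2*). *Tyrobp*, the adaptor of TREM1, TREM2 and MDL-1, held 50.6, 71.0, 114, 64.7 and 20.04 in HRS legs against 2.18, 5.19, 6.19, 4.71 and 6.25, and changed by 3.45 (SE 0.392, adjusted p = 9.46e-06).

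*Trem1* stayed near the limit of detection. HRS legs of m862 to m866 held 0.544, 1.45, 1.71, 0.908 and 0 normalized counts, every contralateral leg was at 0, and the PBS-only legs were at 0 to 0.130. The mean over 16 libraries was under 0.5, so the gene was not among those tested. Pooled over libraries, HRS legs had the equivalent of 318 reads and contralateral legs 0, which is 64.2-fold against a floor of 3 reads over the group, and at least 51.9-fold higher by the exact 95% interval. These bounds cover counting error only, and the HRS leg of m866 had no read. With no filter on low values, limma gave a log2 fold change of 1.33 (SE 0.296, adjusted p = 0.00266), which depends on the added 0.5.

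**Figure D2:**
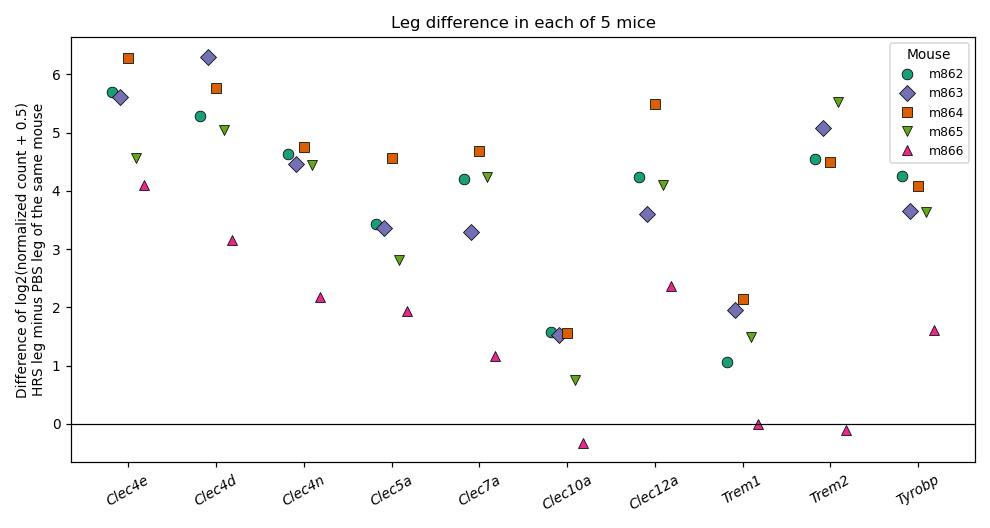
Difference of log2(normalized count + 0.5) between the HRS leg and the PBS leg of each of 5 mice, for the 10 genes. The difference is above 0 in all 5 mice for 7 genes and in 4 for *Clec10a*, *Trem1* and *Trem2*, and m866 is the lowest in every gene.

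Taken mouse by mouse, the difference was positive in 5 of 5 mice for *Clec4e*, *Clec4d*, *Clec4n*, *Clec5a*, *Clec7a*, *Clec12a* and *Tyrobp* (exact two-sided sign-flip test, p = 0.063, the smallest that 5 mice allow). For *Clec10a*, *Trem1* and *Trem2* it was positive in 4 of 5 (exact sign-flip p = 0.13). The design cannot reach 0.05 with this test. The ratio of *Clec4e* to *Clec10a* within a library rose in all 5 mice, by 3.82 to 4.74 on the log2 scale (mean 4.24, SD 0.350, exact sign-flip p = 0.063), m866 included. Its size depends on the added 0.5, since *Clec4e* is near the floor in PBS legs, and the mean was 2.96 with 2 added. That of *Clec4e* to *Clec4d* changed by 0.14 on average (SD 0.698, exact sign-flip p = 0.688), higher in 3 of 5 mice. For *Trem1* to *Trem2* no direction can be given, because *Trem1* had 0 reads in every contralateral leg and a log ratio there would rest on the added 0.5. The plain ratio was 0.0174 to 0.0545 in the HRS legs of m862 to m865 and 0 in that of m866.

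Levels were also put on a common scale per kb of exon, which allows genes to be compared within a library but takes the union of all isoforms as length. In contralateral legs, *Tyrobp* (7.35 ± 2.49, SD, n = 5) and *Clec10a* (6.01 ± 1.46) came first, and the other 8 genes were at 0.709 or less. In HRS legs the order was *Tyrobp* (95.9 ± 51.0), *Clec4d* (24.9 ± 15.1), *Clec4n* (22.2 ± 14.97), *Clec10a* (12.96 ± 5.46), *Clec7a* (10.9 ± 6.97), *Clec4e* (9.88 ± 10.7), *Clec12a* (9.57 ± 7.23), *Trem2* (6.29 ± 4.27), *Clec5a* (3.57 ± 2.91) and *Trem1* (0.308 ± 0.230). *Tyrobp* was above *Clec4d*, *Clec4d* above *Clec4n* and *Clec5a* above *Trem1* in 5 of 5 HRS legs. The neighbours from *Clec10a* to *Clec5a* exchanged places between legs. The place of *Clec4e* in HRS legs rested on m864, since it was above *Clec12a* in 1 of 5 HRS legs. It was at rank 9 of 10 in contralateral legs (0.101 ± 0.0988), at rank 7 in PBS-only legs and at rank 3 in HRS-MBP libraries (24.9 ± 13.1, SD, n = 2).

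Markers of other cells moved with these genes, in a comparison where 16.9% of all genes were called higher. The 12 macrophage genes were all called higher (median change 2.99 on the log2 scale), and their summed level was 1367 to 6811 in HRS legs against 214 to 444 in contralateral legs. F4/80 (*Adgre1*) rose by 4.13 (SE 0.336, limma adjusted p = 1.56e-06). Of 12 neutrophil genes 10 were tested and 9 were called higher, and their sum was 31.4 to 218 against 3.85 to 16.9. The neutrophil marker *Ly6g* was at 0 in all PBS libraries and at most 0.270 in HRS legs. Monocyte genes were called higher in 5 of 6 tested. Of 8 genes of resident macrophages, *Folr2* and *Mrc1* were called higher and *Cd163*, *Retnla* and *Mgl2* lower. Of 8 muscle fibre genes, 3 were called lower. Lymphocyte and stromal lists moved as well: 7 of 7 T cell genes (median change 2.76), 7 of 7 NK cell genes (2.28), 6 of 6 B and plasma cell genes (1.71), 7 of 9 dendritic cell genes (2.02) and 3 of 5 fibroblast genes (1.75) were called higher. Their summed levels in HRS and contralateral legs were 19.6 to 131 and 1.63 to 3.37 for T cells, 13.7 to 48.5 and 0.449 to 2.15 for NK cells, and 50.0 to 146 and 24.9 to 44.9 for dendritic cells. NK cells are known to carry DAP12, and dendritic cells several of the lectins. Of 4 satellite cell genes 1 was called higher, and the 5 endothelial genes had a median change of 0.13. The part of these cell types in the receptor changes was not tested.

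To see which receptors changed by more than the macrophage list did on average, the mean log2 value of that list was subtracted in each library. Genes of the list differ among themselves, and *Adgre1* rose by more between the legs than *Clec4n*. After the subtraction 3 of 9 receptor genes were called higher, against 0.408% of all genes: *Clec4e* by 2.28 (SE 0.401, limma adjusted p = 1.13e-05), *Clec4d* by 2.14 (SE 0.327, adjusted p = 1.72e-06) and *Clec4n* by 1.12 (SE 0.314, adjusted p = 0.00181). That share is low by construction, since the list rose and the subtraction put the median gene at -2.90, so it is no measure of enrichment. The 3 receptor genes called higher are the adjacent genes of the cluster on chromosome 6. *Clec12a*, at 0.99 (limma adjusted p = 0.00266), stayed just under the fold threshold, while *Trem2* (0.93, adjusted p = 0.0533), *Clec7a* (0.55), *Tyrobp* (0.48) and *Clec5a* (0.25) did not pass the test of a difference from the list (the plot of change relative to macrophage genes). *Clec10a* was called lower, at -1.96 (SE 0.293, limma adjusted p = 1.28e-06), but so were 93.9% of all genes, because the list itself rose.

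Calls near the threshold moved with single libraries. The call of *Clec4n* was lost without the HRS leg of m864 (0.9995, limma adjusted p = 0.00562) or the PBS leg of m866 (0.95, adjusted p = 0.00879). *Trem2* was called, at 1.47, without the HRS leg of m866 (limma adjusted p = 3.86e-05). *Clec12a* was called, at 1.01 to 1.09, in each of 5 fits that left out 1 library: the HRS leg of m863 or m865 or the PBS leg of m862, m863 or m866. Adding 2 in place of 0.5 before the logarithm ended the calls of *Clec4d* (0.9992) and *Clec4n* (0.34), which had few reads in PBS muscle, and left those of *Clec4e* and *Clec10a*.

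**Figure D3:**
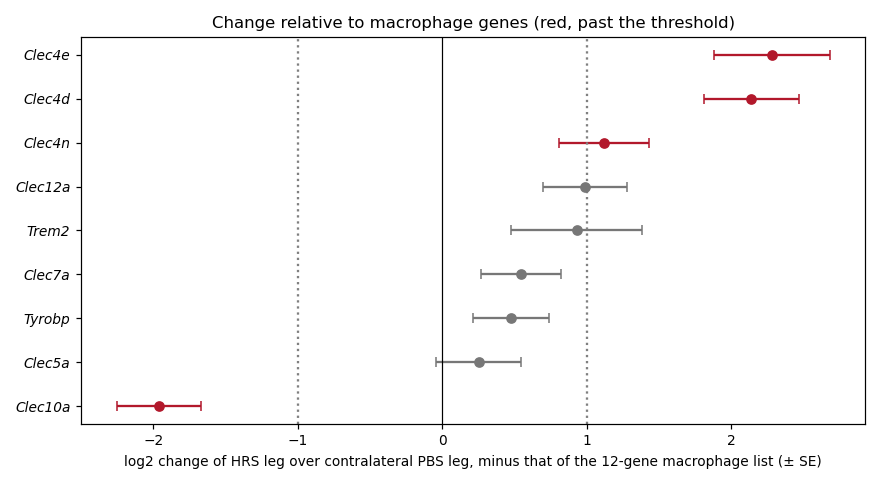
Change of 9 receptor genes between HRS and contralateral PBS legs after subtraction of the change of 12 macrophage genes (log2, ± SE; red, adjusted p under 0.05 and beyond ±1). *Clec4e*, *Clec4d* and *Clec4n* lie above 1, and *Clec10a* lies below -1.

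Contralateral PBS legs were compared with PBS-only mice to ask whether receptors changed away from the injected leg. None of the 9 genes was called by limma or by limma-voom, none had an unadjusted p under 0.05 in limma, and 1 of 16414 genes was called in all (0.00609%). Log2 fold changes ran from -0.31 (*Clec7a*, SE 0.490) to 0.73 (*Clec10a*, SE 0.366, limma unadjusted p = 0.0644). *Clec10a* was at 10.9 to 22.4 in contralateral legs and at 4.23 to 18.7 in PBS-only legs, and without both legs of the shallow mouse m868 its difference was 1.25, not called. *Trem1* had 0 reads in 5 contralateral legs and 3 in 4 PBS-only legs. With 2 PBS-only mice, small differences were not detectable.

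Against the same PBS-only mice, HRS legs gave 9 of 9 tested genes called higher, against 18.9% of all genes (24.8% in either direction). The changes ran from 1.74 (*Clec10a*, SE 0.366, limma adjusted p = 0.00119) to 5.02 (*Clec4e*, SE 0.539, adjusted p = 5.42e-06), with a median of 4.15. For *Trem2* the change was 4.15 (SE 0.741, adjusted p = 0.000365), and 5.02 without m866. The HRS leg of m866, at 1.31, was barely above the highest PBS-only leg, at 1.21, which rested on 10 reads. HRS-MBP libraries were also higher in 9 of 9, against 20.7% of all genes (30.9% in either direction), from 2.01 (*Clec10a*, SE 0.473, adjusted p = 0.00275) to 6.73 (*Clec4e*, SE 0.696, adjusted p = 3.98e-06). Both comparisons share the PBS-only libraries. *Trem2*, at 27.5 and 10.5 in the HRS-MBP libraries, lost its call when m860 was left out (3.28, limma adjusted p = 0.0515), a fit in which the lone m861 is assumed to vary like the other groups.

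The 2 HRS-MBP libraries were then set against the 5 HRS legs. None of the 9 genes was called by limma or by limma-voom, and limma called 76 genes in all (0.463%). An unadjusted limma p under 0.05 was reached by 3 genes, all higher in HRS-MBP: *Clec12a* (1.39, SE 0.502, adjusted p = 0.233), *Clec4e* (1.71, SE 0.672, adjusted p = 0.271) and *Clec5a* (1.05, SE 0.470, adjusted p = 0.326). *Trem2* (-0.20, SE 0.924) and *Clec4n* (-0.40, SE 0.653) had the opposite sign. The result rested on the HRS leg of m864: without it the same 3 genes were called higher, *Clec4e* at 2.22 (limma adjusted p = 0.0172), *Clec12a* at 1.76 (adjusted p = 0.0148) and *Clec5a* at 1.44 (adjusted p = 0.0147). That fit called 590 genes in all, in place of 76. With every library, cell type lists differed too, although 0 of their genes were called. Median log2 changes were 0.90 for macrophage, 1.38 for T cell, 1.85 for B and plasma cell and -0.61 for neutrophil genes. Their part in the receptor changes was not tested. By their titles the HRS-MBP libraries differ from HRS legs in protein and dose, by their treatment label they do not, and their leg is not given, so these cannot be told apart.

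**Figure D4:**
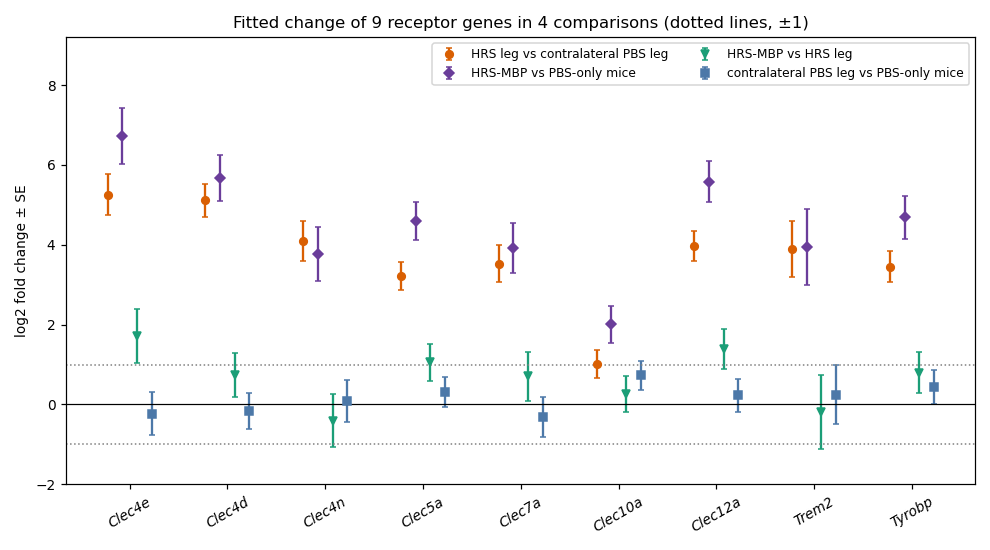
Fitted log2 fold change ± SE of 9 receptor genes in 4 comparisons, with dotted lines at ±1. Contralateral legs stay within ±1 of PBS-only mice for all 9 genes. HRS legs against contralateral legs, and HRS-MBP libraries against PBS-only mice, are above 1 for all 9. HRS-MBP libraries against HRS legs run from -0.40 (*Clec4n*) to 1.71 (*Clec4e*), with none called.

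The balance between *Clec4e* and *Trem2* differed between libraries, an observation chosen after the values were seen and given with no test. The ratio of *Clec4e* to *Trem2* was 16.2 in m861 and 2.82 in m860, the HRS-MBP libraries. In HRS legs it ranged from 0.389 in m865 to 12.5 in m866, with 4.56 in m864. Contralateral legs were at 0.217 to 1.45 and PBS-only legs at 0.167 to 2.17, where few reads stand behind each value.

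**Figure D5:**
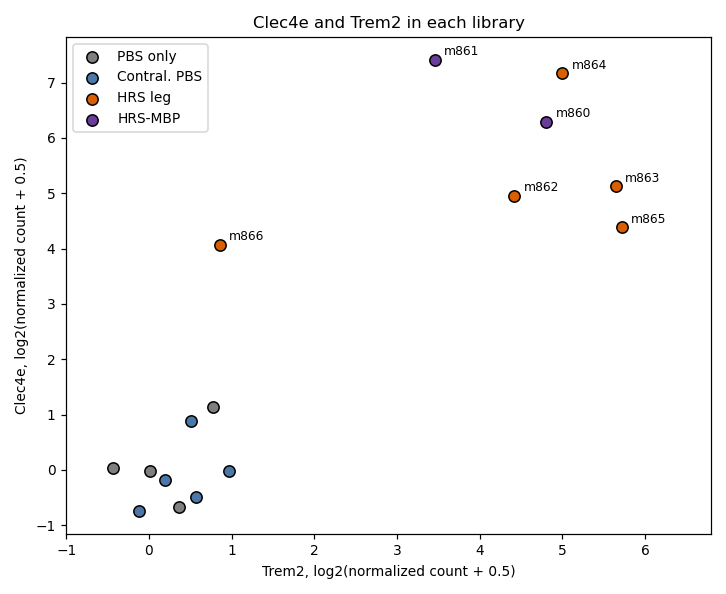
*Clec4e* against *Trem2*, each as log2(normalized count + 0.5), in 16 libraries coloured by group. The HRS leg of m866 has *Clec4e* raised while its *Trem2* is among the PBS libraries, and m861 has the highest *Clec4e*.

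The signalling partners of the receptors rose between the legs, as did the T, NK and B cell lists above. Of 18 tested genes of the Syk and DAP12 pathway, 16 were called higher and 0 lower, against 16.9% of all genes called higher. Their median log2 fold change was 2.72. Against PBS-only mice, 16 were called higher and 1 lower in HRS legs, where 18.9% of all genes were higher. In HRS-MBP libraries 17 were called higher and 1 lower, where 20.7% of all genes were higher. The Src family kinase *Fgr* rose most, by 4.42 (SE 0.378, limma adjusted p = 1.93e-06). *Fcer1g*, the Fc receptor gamma chain, rose by 3.79, *Syk* by 3.17 and *Card9* by 2.14. *Bcl10* (0.90) stayed under the fold threshold, and *Rasgrp3* was the lowest at -0.84 (adjusted p = 0.00713, not called). Of 13 inhibitory phosphatases and receptors 10 were tested and 9 called higher. The largest change was that of *Ptpn6*, which encodes the phosphatase SHP-1 (3.89, SE 0.368, adjusted p = 2.43e-06), and the smallest that of *Ptpn11* (-0.26), which encodes SHP-2 and is expressed in most tissues.

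Other receptors that use DAP12 or a related adaptor were called higher in 9 of 10 tested, against 16.9% of all genes. Their changes ran from *Clec4b1* (0.87, not called) to *Sirpb1c* (4.18, SE 0.385, limma adjusted p = 2.10e-06). The *Sirpb1* genes are near-identical copies whose reads may be split between them. Of 10 known ligands, 4 were called higher, with a median of 0.62. *Apoe*, a TREM2 ligand, rose by 2.17 (SE 0.487, adjusted p = 0.00187), and *Clu* was lowest at -0.97 (adjusted p = 0.00171, under the fold threshold). *Pglyrp1*, a TREM1 ligand, rose by 1.71, and *Sap130*, a nuclear protein bound by Mincle, was at 0.42, both picked after their values were seen.

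Of 14 listed cytokines and effectors that Card9 or TREM1 can induce, 10 were tested and all were called higher, against 16.9% of genes. Whether Card9 or TREM1 induced them in this muscle was not tested. *Ccl2*, *Il1b* and *Tnf* changed by 3.76, 3.91 and 3.46, and *Nos2* had the smallest change at 1.61 (SE 0.508, limma adjusted p = 0.0131). *Il6*, at 0.392 to 0.840 in HRS legs, was below the level needed for a test. Of 15 genes assigned to the TREM2-dependent macrophage programme, 8 were called higher and 0 lower, with a median of 1.12. Their dependence on TREM2 was not tested here. Against PBS-only mice 12 were called higher in HRS legs, where 18.9% of all genes were. In HRS-MBP libraries 10 were called higher, where 20.7% of all genes were. *Itgax* rose most, by 4.13 (SE 0.372, adjusted p = 1.96e-06), and *Lpl* was lowest at -0.73 (adjusted p = 0.00921, under the fold threshold). Of 25 other genes named Clec or Trem, 16 were tested and 8 called higher, led by *Clec4a1* (3.55) and *Clec4a3* (3.44), which belong to the same family as *Clec4n*.

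The genes closest to each receptor in pattern were found by the root mean square difference of centred log2 values over the 16 libraries, which share the split between HRS and PBS. *Trem2* was closest to *Gpnmb*, a lysosomal glycoprotein of lipid-laden macrophages (0.320), then to *Col1a1* (0.468) and *Ankrd1* (0.488). *Gpnmb* was at 12.3 to 333 in HRS legs. *Clec4e* was closest to *Fpr2*, a formyl peptide receptor (0.431), *Serpina3g* (0.442) and *Acod1*, the itaconate-producing enzyme (0.468). *Clec4d* was closest to *Ly9* (0.400), *Mpeg1* (0.421) and *Ctss* (0.430), and *Clec4n* to *Il1b* (0.364), *B430306N03Rik* (0.437) and *Wfdc17* (0.439).

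For the remaining members, *Tyrobp* was closest to *Laptm5* (0.190), *Nckap1l* (0.191) and *Cd53* (0.206), and *Clec5a* to *Ifi30* (0.196), *Fyb* (0.231) and *Arl5c* (0.231). *Clec7a* was closest to *Sirpa* (0.287), *Cd84* (0.300) and *Tnfrsf1b* (0.325), and *Clec12a* to *Hk3* (0.264), *Lair1* (0.269) and *Igsf6* (0.276). *Clec10a* was closest to *Pdlim2* (0.257), *Folr2*, a folate receptor of resident macrophages (0.301), and *Fgf7* (0.307). The nearest other member, *Clec5a*, was 1.23 away from *Clec10a*, while the distance between *Clec4e* and *Clec4d* was 0.633.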

How the data were processed

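Bulk RNA of mouse hamstring was sequenced from poly(A)-selected, directional libraries. Normalized counts were what the authors deposited, and they were handled as a linear signal with no negative values. How the scaling was done is not given in the sources used here. Per the submitters' processing notes, STAR 2.7.8a and limma were used with GRCm39 (mm39), but 98.9% of the 25652 genes matched by symbol and chromosome had the start and end of GENCODE M21 (GRCm38). Between 75.4% and 77.7% of low values were whole multiples of 1 read (tolerance 0.02), so no count model was used for the main results. As an alternative, limma-voom was run on the normalized counts, which are not raw counts. The step of 1 read gave implied depths of 8595360 to 73939200 reads and floors of 3 reads. Intervals and floors cover counting error only.

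In R 4.3.3, limma 3.58.1 (lmFit, eBayes with trend) was run on log2(normalized count + 0.5). Genes averaging 0.5 or more across the 16 libraries entered (16414 genes), in 1 fit of 4 groups with Benjamini-Hochberg adjustment over all tested genes. Genes were called at adjusted p under 0.05 and an absolute log2 fold change above 1. For the relative comparison, the mean log2 value of 12 macrophage genes was subtracted in each library. Fold changes understate low genes. Single leg differences were tested by exact sign flips in Python 3.11.15. The fits were run on simulated data in which all groups had the same spread and mouse had no effect. That run does not show how they perform where spread differs between groups or legs share a mouse. The legs of a mouse carry the same mouse number in the labels, so they are paired by animal, although deviations from the group means correlated at only 0.12, 0.16, 0.097, -0.026 and -0.37 in m862 to m866. The highest correlation between libraries was 0.991, and no pair was identical. Both legs of a PBS-only mouse were counted as separate samples, which may make p-values against them too small.

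The genes named were the 10 members, the largest and smallest change of each list, defining markers, the 3 nearest genes in pattern, and genes said to be picked later. Members and lists were chosen with earlier results of these data known. Alternatives covered the pseudocount, filter, scaling, variance model, block and left-out libraries or mice. Human, single-cell and cytometry data were not used here.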

Additional observations from a re-analysis of the deposited data

Results flagged for a closer look

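In groups of 4 or 5 libraries, a library was marked where its gap to the nearest other on the log2 scale took most of the group's range (Dixon's test at 95%). Among 30 groups of values, 3 were marked, and chance marks about 1 in 20 where values are independent. The 30 include *Trem1* in contralateral legs, which was 0 throughout and could not be marked. PBS-only legs come in pairs from the same mouse, so they are not independent. *Trem2* in the HRS leg of m866 was at 1.31 normalized counts, far below the other HRS legs (20.9 to 52.3). *Tyrobp* in the PBS leg of m862 was at 2.18, below the other contralateral legs (4.71 to 6.25). *Tyrobp* in the left leg of PBS-only mouse m867 was at 1.46, below the other PBS-only legs.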

How the results depend on the processing

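Single receptor genes were followed through 1260 alternatives, of which 0 reversed a called direction, 14 lost a call and 17 gained one. The count of receptor genes called between HRS and contralateral legs was 8 to 10 over all settings, where 10 includes *Trem1* with no filter. With mouse as a fixed replicate block (paired legs), 9 of 9 were called (3652 genes in all), *Clec10a* at 1.01 (limma adjusted p = 0.0355) and *Trem2* at 3.90 (adjusted p = 0.0142), and the block changed no other call. *Clec10a* was under the fold threshold with a pseudocount of 2 (0.957), median of ratios scaling (0.937) and quantile normalization (0.873), and over all its alternatives it ran from 0.83 to 1.42, with adjusted p of 0.00237 to 0.0811. Between HRS-MBP and HRS legs, the count was 0 to 3 with 1 HRS leg left out. It was 3 without the HRS legs of m864 and m866, in a fit that called 655 genes in all, against 76 with every library. That setting was chosen after seeing the data, as was leaving out m868. Relative to the macrophage list, 4 genes were called (3 higher, 1 lower), 7 with the neutrophil list as reference (6 higher, 1 lower) and 2 with a pseudocount of 2 (1 higher, 1 lower), in fits that called 15484, 14774 and 15772 genes. The causes were not tested, except that a larger pseudocount shrinks genes that are low in PBS muscle. The change of the *Clec4e* to *Clec10a* ratio was 5.07 with the smaller pseudocount tried and 2.96 with 2. Depth limits *Trem1*, with 0 reads in contralateral legs, and the low PBS levels of *Clec4e*, *Trem2*, *Clec4d* and *Clec5a*, which had 46, 46, 44 and 37 reads summed over the PBS-only legs.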
